A study of Homo sapiens with 15 samples.

Results

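NCI-H295R cells come from a human carcinoma of the adrenal cortex and secrete aldosterone and other steroids. Of the 15 RNA-Seq libraries of the study, 8 are described here: the 4 libraries of cells that had received empty plasmid, called mock, and 4 libraries called set A, which are those labelled control 1, control 2, NFATC4-KO 1 and NFATC4-KO 2. The mock cells are wild type, were electroporated with pcDNA3.T7 without insert, and gave RNA 3 days after transfection. The cells labelled control are wild type and, by the study's methods, had been transfected in parallel with empty plasmids when the knockout was made. The cells labelled NFATC4-KO carry a CRISPR/Cas9 inactivation of NFATC4 and were grown from single cells, so a library of them can stand for 1 clone. The 3 libraries of wild-type cells given pcDNA3.T7 delta-NFAT3, which encodes a constitutively active NFATC4 and is called ΔNFATC4 here, were made at the same day after transfection as mock and serve as a second transfected group. The other 4 libraries labelled control or NFATC4-KO are called set B. All groups were wild-type or edited cells of the same line, and no medium, day or batch is given that would link mock to set A.

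Set A was chosen on the same counts that are described here: its libraries are those labelled control or NFATC4-KO whose profiles lie closest to mock. On log2 CPM (CPM are the counts-per-million values, scaled to the total of each library) over 14368 genes, Pearson's r with the mean of the mock libraries was 0.987 to 0.990 for set A, and 0.954 to 0.961 for set B, just outside. Each mock library reached 0.995 to 0.996 with the mean of the other mock libraries, and the ΔNFATC4 libraries reached 0.990 to 0.991. Because the choice used these values, the differences between mock and set A are given as sizes against the spread between libraries, and no p is printed for them. Transfection, time in culture, day of harvest, clone and label cannot be told apart in this comparison. A gene is called higher or lower where a quasi-likelihood test in edgeR gave an adjusted p under 0.05, with a fold change over 2 where that is said, and log2 fold changes carry their standard error (SE, 4 against 4 libraries).

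The total count was 21625969 to 28164717 in mock and 20620283 to 25874379 in set A, and no pair of replicates agreed within sampling noise. All 15 adrenal cortex markers, among them NR5A1, STAR and CYP11A1, passed the filter on low counts, with a summed level of 10663 to 11711 CPM in mock and 10953 to 12786 CPM in set A. Of 10 markers each, 2 endothelial, 4 immune, 4 fibroblast, 3 chromaffin and 3 epithelial ones passed it. NFATC4 itself, the gene targeted in the libraries labelled NFATC4-KO, was at 91.3, 93.4, 106 and 87.5 CPM in mock 1 to 4, and at 114, 110, 92.7 and 85.4 CPM in control 1, control 2, NFATC4-KO 1 and NFATC4-KO 2. These ranges overlap, and the transcript was present in the libraries labelled NFATC4-KO. A count over the whole gene does not check a small edit in an exon.

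Cells sense oxygen through the prolyl hydroxylases EGLN1 to EGLN3, which mark the α subunits HIF1A and EPAS1 for destruction by the VHL complex. When oxygen is short the α subunits pair with ARNT, bind short DNA motifs and raise genes of glucose uptake, glycolysis, pH control and mitochondrial turnover. In aldosterone-producing cells, depolarisation opens voltage-gated calcium channels, whose pore subunits include CACNA1C and CACNA1D, and the calcium that enters drives steroid synthesis. Class I MHC molecules are made by most cells and rise with interferon.

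The 3 genes that mark the difference between mock and set A come from these pathways. ALDOC encodes aldolase C, a glycolytic enzyme (GRCh38, chr17:28573115-28576948, minus strand). PFKFB4 sets the level of fructose 2,6-bisphosphate, an activator of glycolysis (chr3:48517684-48562015, minus strand, overlapping UCN2 on the same strand). CACNA1C is the pore of the L-type calcium channel Cav1.2 (chr12:1970772-2697950, plus strand). The 250 bases before 1 RefSeq start (GRCh38.p14) of ALDOC, PFKFB4 and CA9, a carbonic anhydrase used as a hypoxia marker, are shown because these genes were higher in mock and such windows can hold the core of the motif that HIF binds. Capitals mark ACGTG or GCGTG on either strand, and matches can overlap.
ALDOC, chr17:28576896-28577145, minus strand: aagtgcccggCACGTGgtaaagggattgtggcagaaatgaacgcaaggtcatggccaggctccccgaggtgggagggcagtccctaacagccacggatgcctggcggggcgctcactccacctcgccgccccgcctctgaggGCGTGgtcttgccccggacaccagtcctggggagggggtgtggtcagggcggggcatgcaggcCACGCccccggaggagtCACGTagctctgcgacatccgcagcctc
PFKFB4, chr3:48556804-48557053, minus strand: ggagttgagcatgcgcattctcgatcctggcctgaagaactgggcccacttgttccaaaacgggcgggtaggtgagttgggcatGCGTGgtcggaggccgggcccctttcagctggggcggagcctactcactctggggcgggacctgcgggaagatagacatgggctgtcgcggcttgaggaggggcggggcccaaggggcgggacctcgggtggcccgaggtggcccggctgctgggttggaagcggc
CA9, chr9:35673678-35673927, plus strand: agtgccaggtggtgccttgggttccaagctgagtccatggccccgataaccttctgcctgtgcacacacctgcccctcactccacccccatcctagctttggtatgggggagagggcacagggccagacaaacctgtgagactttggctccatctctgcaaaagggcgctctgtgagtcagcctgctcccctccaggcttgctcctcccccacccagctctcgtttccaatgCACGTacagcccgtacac
The window of ALDOC held 3 matches to ACGTG, counting both strands of a palindrome, and 2 to GCGTG, that of PFKFB4 held 1 match to GCGTG, and that of CA9 held 1 match to ACGTG. The same length of sequence before 1 RefSeq start of CACNA1C (chr12:2052737-2052986) held none. The windows of CACNA1C and PFKFB4 lie inside the gene intervals given above. Sequence before other starts of these genes was not looked at, so the genes are not contrasted by it. Of all 35116 windows of this length in the table, 18.5% held ACGTG, 32.2% GCGTG and 43.2% either. By symbol, 24 of the 28 members of the list of hypoxia targets with an entry held either motif, beside 19 of 21 ER chaperones and 47.4% of all symbols. A match is a run of letters and no measured binding.

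Between mock and set A, 13857 genes were tested. Of these, 82 were higher in mock past 2-fold (0.592%) and 166 were lower (1.20%). Without the fold limit, 2636 (19.0%) were higher and 2764 (19.9%) lower, most by small amounts. In 2299 genes (16.6%) every mock library lay above every library of set A, and in 2602 (18.8%) every one lay below. Between ΔNFATC4 and mock, groups that come from the labels, 14094 genes were tested, of which 307 were higher past 2-fold (2.18%) and 21 lower (0.149%), or 1084 (7.69%) and 860 (6.10%) without the fold limit. Against set A, ΔNFATC4 was higher past 2-fold for 375 of 14151 genes (2.65%) and lower for 140 (0.989%), or 2540 (17.9%) and 2978 (21.0%) without it. The comparisons share libraries and are set side by side only.

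**Figure D1:**
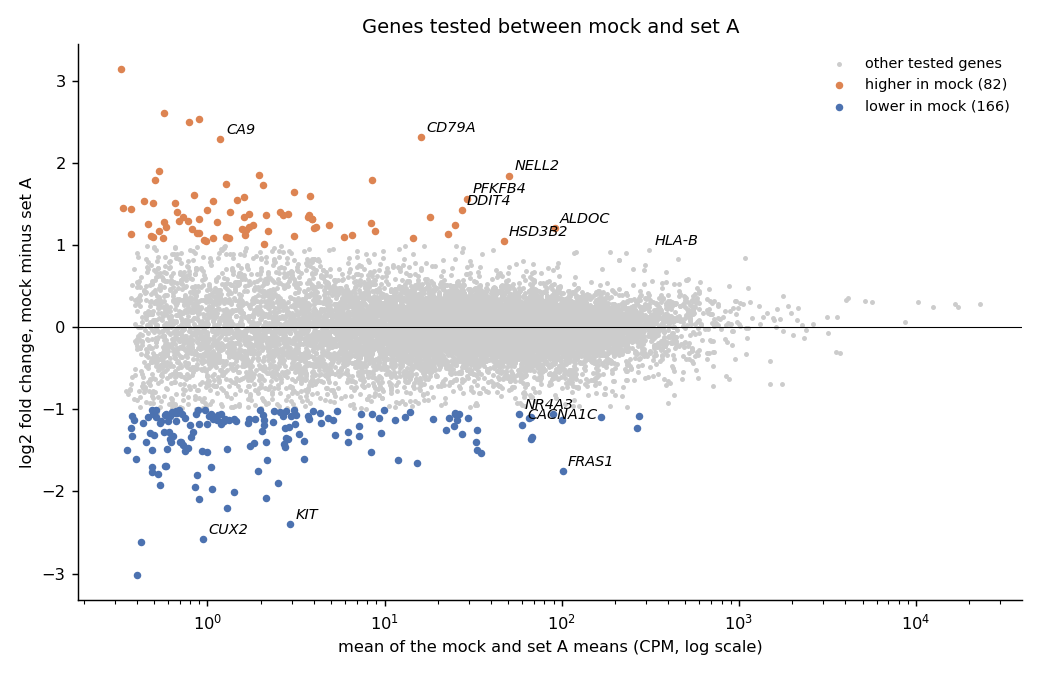
Log2 fold change of mock minus set A (y axis) against the mean level in CPM (x axis, log scale, mean of both groups) for the 13857 tested genes. The 82 genes higher in mock past 2-fold are orange and the 166 lower are blue. ALDOC and NELL2 stand among the higher genes with more than 50 CPM in mock, and CACNA1C and FRAS1 among the lower ones with more than 50 CPM in set A.

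Many genes of the oxygen response were higher in mock. Of 36 listed hypoxia targets outside glycolysis, 30 were tested, 21 were higher in mock, 1 was lower and 8 were not called. Their median log2 fold change was 0.54, beside 0.01 for all genes tested. Of 33 genes of glucose uptake and glycolysis, 30 were tested, 13 were higher, 2 lower and 15 not called, with a median of 0.14. Of 11 oxygen sensing genes, 10 were tested, 6 were higher and 1 lower, and against the libraries labelled NFATC4-KO alone 3 were higher. Counts against all of set A, here and for the other lists, stand beside 19.0% higher and 19.9% lower among all genes. For the NFATC4-KO label alone, 1922 of 14039 genes were higher. The lists were written with earlier results of these data known, so their counts describe the genes and support nothing further.

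In mock 1 to 4, ALDOC was at 135, 124, 156 and 95.1 CPM. In control 1, control 2, NFATC4-KO 1 and NFATC4-KO 2 it was at 55.04, 55.3, 57.4 and 54.4 CPM. Every mock library lay above every library of set A, and mock 3 was the highest and mock 4 the lowest of the mock libraries. The log2 fold change was 1.20 ± 0.11. The 3 ΔNFATC4 libraries, at 51.8, 48.1 and 48.3 CPM, lay below set A. In bulk RNA, fewer cells that express a gene and less of its RNA in each cell cannot be told apart.

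PFKFB4 stood at 46.2, 43.0, 63.6 and 21.6 CPM in mock and at 13.2, 14.4, 16.3 and 15.1 CPM in set A, a log2 fold change of 1.56 ± 0.28. Here too mock 3 was highest and mock 4 lowest, and mock 4 was close to the upper end of set A. ΔNFATC4, at 15.2, 14.1 and 15.7 CPM, was within the range of set A, and so were part of the set B libraries, which spanned 10.98 to 18.7 CPM. The difference was called with all 4 libraries of set A and was not called with either label of set A alone, where it was 1.66 for the libraries labelled control and 1.48 for those labelled NFATC4-KO.

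**Figure D2:**
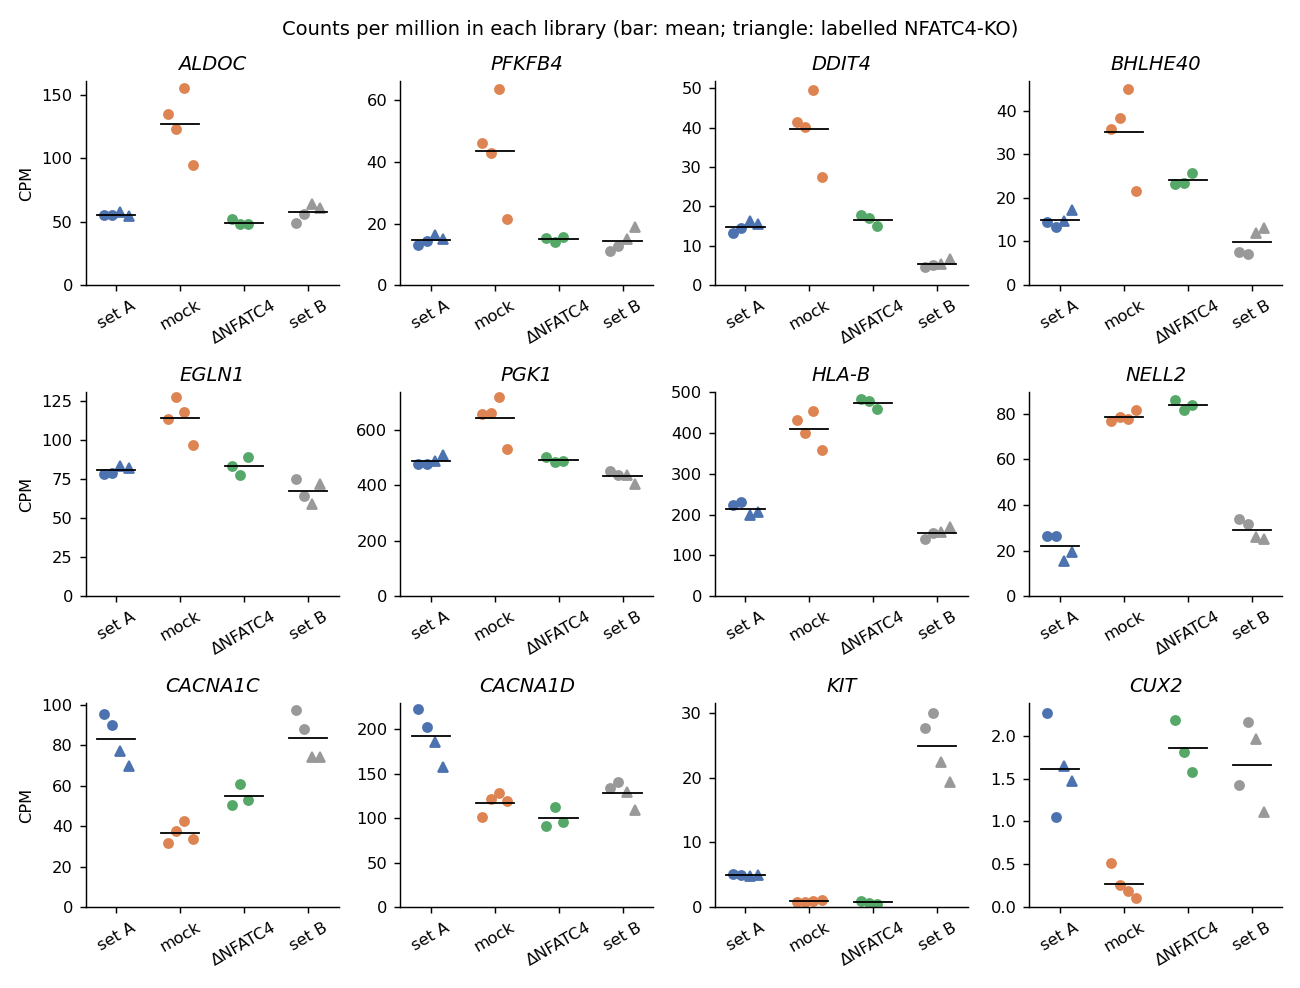
CPM (y axis, from 0) of 12 genes in each library of set A, mock, ΔNFATC4 and set B. Points are libraries, triangles are those labelled NFATC4-KO, and the bar is the mean. For ALDOC, PFKFB4, DDIT4, EGLN1 and PGK1 mock stands above the other sets, for HLA-B and NELL2 both transfected groups do, and for CACNA1C and CACNA1D both lie below set A.

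The hypoxia targets that moved most were CA9, ANKRD37, DDIT4, NDRG1 and BHLHE40, with log2 fold changes of 1.24 to 2.28. DDIT4, an inhibitor of mTORC1 signalling, was at 41.5, 40.1, 49.6 and 27.5 CPM in mock and at 13.2, 14.5, 16.3 and 15.5 CPM in set A (1.42 ± 0.14). BHLHE40, a transcriptional repressor, was at 35.8, 38.2, 44.9 and 21.6 CPM in mock and at 14.4, 13.3, 14.6 and 17.2 CPM in set A (1.24 ± 0.17). CA9 was at 2.17, 1.29, 3.95 and 0.502 CPM in mock and at 0.284, 0.429, 0.388 and 0.461 CPM in set A (2.28 ± 0.53). All mock libraries lay above set A for these 3 genes, but CA9 in mock 4 barely so, and CA9 overlaps ARHGEF39 on the other strand. Against the libraries labelled NFATC4-KO alone CA9 (2.16) and ANKRD37 (1.37) were not called. ANKRD37 was at 2.91, 2.84, 2.17 and 0.933 CPM in mock, and its lowest library fell within the range of set A (1.54 ± 0.35).

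ΔNFATC4 did not hold 1 place among these genes. DDIT4, at 14.97 to 17.8 CPM in ΔNFATC4, overlapped set A. NDRG1, a stress-response gene, was at 12.1, 12.4, 15.5 and 7.32 CPM in mock, at 4.29, 4.76, 4.65 and 5.87 CPM in set A, and at 8.62, 8.84 and 9.81 CPM in ΔNFATC4, between the means of the others. BHLHE40, at 23.2, 23.5 and 25.7 CPM in ΔNFATC4, also lay above set A, and above the lowest mock library.

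Smaller rises were found in genes of mitophagy (BNIP3, 0.51 ± 0.10, and BNIP3L, 0.40 ± 0.08), collagen modification (P4HA1, 0.45 ± 0.10, P4HA2, 0.62 ± 0.14, and PLOD1, 0.42 ± 0.07), oxidative protein folding (ERO1A, 0.43 ± 0.08) and histone demethylation (KDM3A, 0.62 ± 0.12). EFNA3, an ephrin, was at 98.3, 90.8, 101 and 85.7 CPM in mock and at 58.9, 63.1, 60.4 and 56.2 CPM in set A (0.66 ± 0.06). BHLHE41 was the list's lower gene (-0.25 ± 0.10), but lost its call under 9 of 20 alternatives and was at -0.03 against the libraries labelled NFATC4-KO alone. VEGFA, the angiogenic factor, was at 163 ± 12.1 CPM in mock and 173 ± 9.86 CPM in set A (mean ± SD, n = 4 each). It was not called, its ranges overlapped, its sign turned with the length trend removed (0.12), and it was singled out after its values were seen. The other 6 members did not pass the filter on low counts.

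Most glycolytic enzymes moved by less. PGK1, phosphoglycerate kinase, was at 658, 662, 720 and 531 CPM in mock and at 477, 475, 486 and 511 CPM in set A (0.41 ± 0.07). LDHA, which makes lactate, was at 566, 542, 562 and 447 CPM in mock and at 393, 407, 400 and 410 CPM in set A (0.40 ± 0.07). In both genes every mock library lay above set A and mock 4 was the lowest. TPI1 (0.38 ± 0.06), PKM (0.35 ± 0.06), ENO1 (0.31 ± 0.07) and the glucose transporter SLC2A1 (0.29 ± 0.06) did likewise, and ALDOA (0.32 ± 0.06) had mock 2 as its lowest mock library, still above set A. GAPDH (0.13 ± 0.06) and the hexokinase HK2 (0.46 ± 0.18), singled out after their values were seen, were not called, though GAPDH was without mock 2 (0.17) and HK2 without mock 4 (0.64).

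Other isoforms of the same enzymes moved apart. ENO3, the enolase of muscle, was at 19.7, 17.0, 19.5 and 18.3 CPM in mock and at 46.9, 44.6, 34.6 and 35.4 CPM in set A (-1.11 ± 0.10), while ENO2, the neuronal enolase, was higher in mock (0.84 ± 0.18). A relative of PFKFB4, PFKFB2, was lower (-0.53 ± 0.09). ENO3 shares its locus with PFN1 on the other strand, and the strand setting of the counting is not stated in the sources used here.

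Among the oxygen sensing genes, the hydroxylase EGLN1 was at 114, 127, 118 and 97.2 CPM in mock and at 78.5, 79.0, 83.3 and 82.3 CPM in set A (0.50 ± 0.07), without overlap. EGLN3, also a hydroxylase, was called higher (0.31 ± 0.11) but its ranges overlapped, at 14.1 to 19.4 CPM in mock and 12.8 to 16.1 CPM in set A, and it lost its call under 6 alternatives. EPAS1 was higher (0.54 ± 0.13), but at 0.29 and not called against the libraries labelled NFATC4-KO alone. HIF1A was lower, at 445 to 540 CPM in mock and 581 to 611 CPM in set A (-0.26 ± 0.06). ARNT, singled out after its values were seen, was at -0.15 ± 0.06 and not called. HIF1A is controlled mainly through its protein, which was not measured here.

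**Figure D3:**
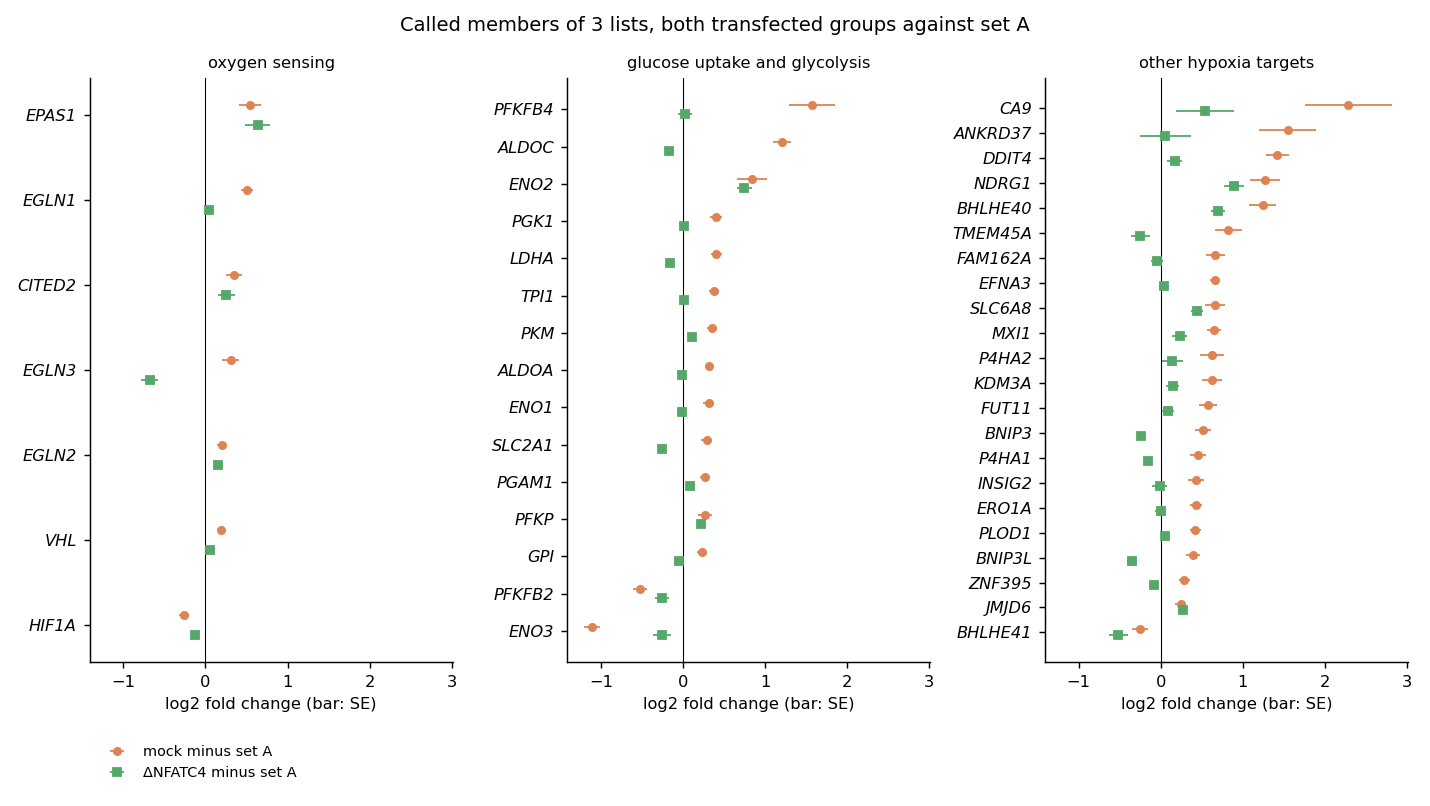
Log2 fold change against set A (x axis, bars are SE) of every called member of 3 lists, for mock (orange circles) and ΔNFATC4 (green squares). In the middle panel PFKFB4 and ALDOC reach 1.56 and 1.20 in mock and 0.03 and -0.17 in ΔNFATC4; both comparisons use the same set A libraries.

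The 4 mock libraries were unequal in this response. The median over the 30 tested hypoxia targets, taken on log2 CPM against the mean of set A, was 0.55, 0.59 and 0.66 in mock 1 to 3 and 0.16 in mock 4. Mock 4 was the lowest mock library for 19 of the 21 hypoxia targets called higher and for 11 of the 13 glycolytic genes, and mock 3 was the highest for 12 and 11 of them. The same median was -0.05 to 0.03 in the 3 ΔNFATC4 libraries. Without mock 4, 25 of 32 tested hypoxia targets were called higher, beside 2257 of 13931 among all genes. Tested directly against mock, ΔNFATC4 was lower for 16 of 33 hypoxia targets and higher for 2, and lower for 16 of 31 glycolytic genes and higher for 3, beside 6.10% lower and 7.69% higher among all genes. What set mock 4 apart was not tested.

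The voltage-gated calcium channel genes that were called were all lower in mock. Of 18 subunit genes, 13 were tested, 6 were lower, beside 19.9% of all genes, none was higher and 7 were not called, and the median log2 fold change was -0.23. CACNA1C was at 31.8, 37.5, 42.9 and 33.8 CPM in mock and at 95.7, 90.2, 77.4 and 69.6 CPM in control 1, control 2, NFATC4-KO 1 and NFATC4-KO 2. Every mock library lay below set A, and the libraries labelled control stood above those labelled NFATC4-KO. The log2 fold change was -1.19 ± 0.10, or -1.34 against the libraries labelled control and -0.996 against those labelled NFATC4-KO. ΔNFATC4, at 50.5, 61.1 and 52.98 CPM, lay between mock and set A without overlap with either. The 18 subunit genes summed to 350 to 432 CPM in mock and 532 to 649 CPM in set A. In set B the sum was 412 to 469 CPM, also below set A. CACNA1C and CACNA1I did not share this. Their raw counts in set B were 1732 to 2265 and 214 to 248, beside 732 to 943 and 49 to 63 in mock.

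CACNA1D, the pore of Cav1.3, was at 101, 121, 128 and 119 CPM in mock and at 222, 203, 185 and 157 CPM in set A (-0.71 ± 0.09). The auxiliary subunit genes CACNA2D1 (-0.63 ± 0.09) and CACNB2 (-0.45 ± 0.09) were also lower. For these 3 genes ΔNFATC4 lay below set A as well. Set B was also low for all 3. CACNA1D had 2555 to 3119 raw counts there, beside 2332 to 3308 in mock and 3755 to 5485 in set A. Of the T-type pores, which open at low voltage, CACNA1I (-0.80 ± 0.17) and CACNA1G (-0.23 ± 0.07) were lower in mock, the latter losing its call under 5 alternatives. CACNA1H, at 34.5 to 44.7 CPM in mock and 30.3 to 38.4 CPM in set A, was not called (0.23 ± 0.09), was called higher under 7 alternatives, and was singled out after its values were seen.

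Of 17 potassium channels and ion pumps, 15 were tested, 3 were higher and 4 lower, shares near those of all genes (19.0% and 19.9%). KCNJ5, a potassium channel mutated in many aldosterone-producing adenomas, was at 218, 243, 253 and 251 CPM in mock and at 409, 387, 355 and 328 CPM in set A (-0.61 ± 0.07). KCNK2, a 2-pore channel, was lower too (-0.80 ± 0.15). In both genes no mock library reached set A. KCNK2 was also low in set B, at 134 to 249 raw counts beside 206 to 336 in mock. KCNJ5 was not, at 9678 to 11338 beside 5014 to 7006.

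Long transcripts had lower values in mock across all genes, and several channel genes are long. Over 13838 tested genes with an exon length, Spearman's rho between log2 fold change and length was -0.35, a description across genes of 8 libraries. The median log2 fold change was 0.15 in the shortest of 8 groups of genes ordered by exon length and -0.22 in the longest, which starts at 11050 bases. For ΔNFATC4 against set A rho was -0.33, and for ΔNFATC4 against mock it was 0.03. The trend varied within the sets. By library, rho between length and the difference from set A was -0.42 to -0.20 in mock. In set A it was -0.16 to 0.21, each library taken against the mean of the others. CACNA1C has 25552 bases of exons and CACNA1D 19199. With the trend on length removed from each library, CACNA1C was at -0.88, still called but under 2-fold, and 5 calcium channel genes were lower and 1 higher, CACNA1G (-0.10) no longer being called. The hypoxia list had 24 higher and 1 lower under that setting. Among all 13857 genes 2545 were higher and 2492 lower under it. The part of RNA quality or library preparation in the trend was not tested.

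**Figure D4:**
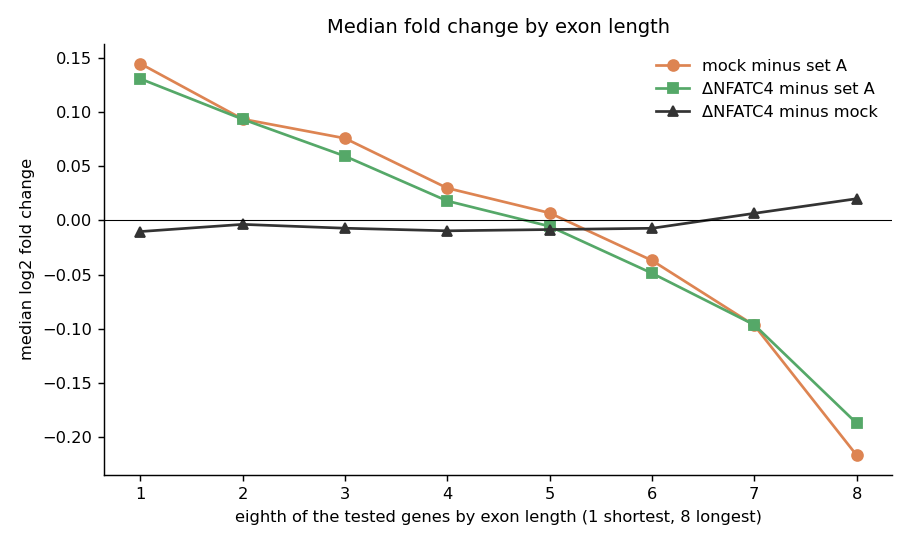
Median log2 fold change (y axis) in 8 groups of tested genes ordered by exon length (x axis). Both transfected groups fall from positive to negative values against set A, from 0.15 to -0.22 for mock, while ΔNFATC4 minus mock stays near 0.

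Many antigen presentation and interferon genes were higher in mock and in ΔNFATC4. Of 13 class I MHC pathway genes, 11 were higher in mock than in set A and none lower, with a median log2 fold change of 0.64, and ΔNFATC4 was higher than set A for 9 of them. HLA-B, a class I heavy chain, was at 431, 400, 454 and 359 CPM in mock, at 224, 231, 199 and 207 CPM in set A, and at 483, 480 and 460 CPM in ΔNFATC4. B2M, the light chain, was at 1572, 1501, 1329 and 1175 CPM in mock and at 749, 782, 750 and 838 CPM in set A (0.85 ± 0.08). Mock and set A did not overlap in either gene, and reads of HLA-B may have been split with similar genes. Against mock, ΔNFATC4 was higher for 2 of these 13 genes and lower for none.

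Of 45 genes of DNA sensing and the interferon response, 36 were tested, 20 were higher in mock, 2 lower and 14 not called, with a median of 0.33. IFI6, an interferon-induced mitochondrial protein, was at 36.7, 29.8, 34.3 and 24.0 CPM in mock and at 12.8, 16.2, 12.99 and 15 CPM in set A (1.13 ± 0.12). IFIT1, which binds foreign RNA, was higher by 0.65 ± 0.07. ΔNFATC4 differed from mock in 1 higher and 1 lower of the 36. The list summed to 1066 to 1147 CPM in mock, 983 to 1017 CPM in set A and 1013 to 1127 CPM in set B, which overlapped mock. Its median log2 difference from set A was 0.04 to 0.15 in set B and 0.20 to 0.35 in mock.

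**Figure D5:**
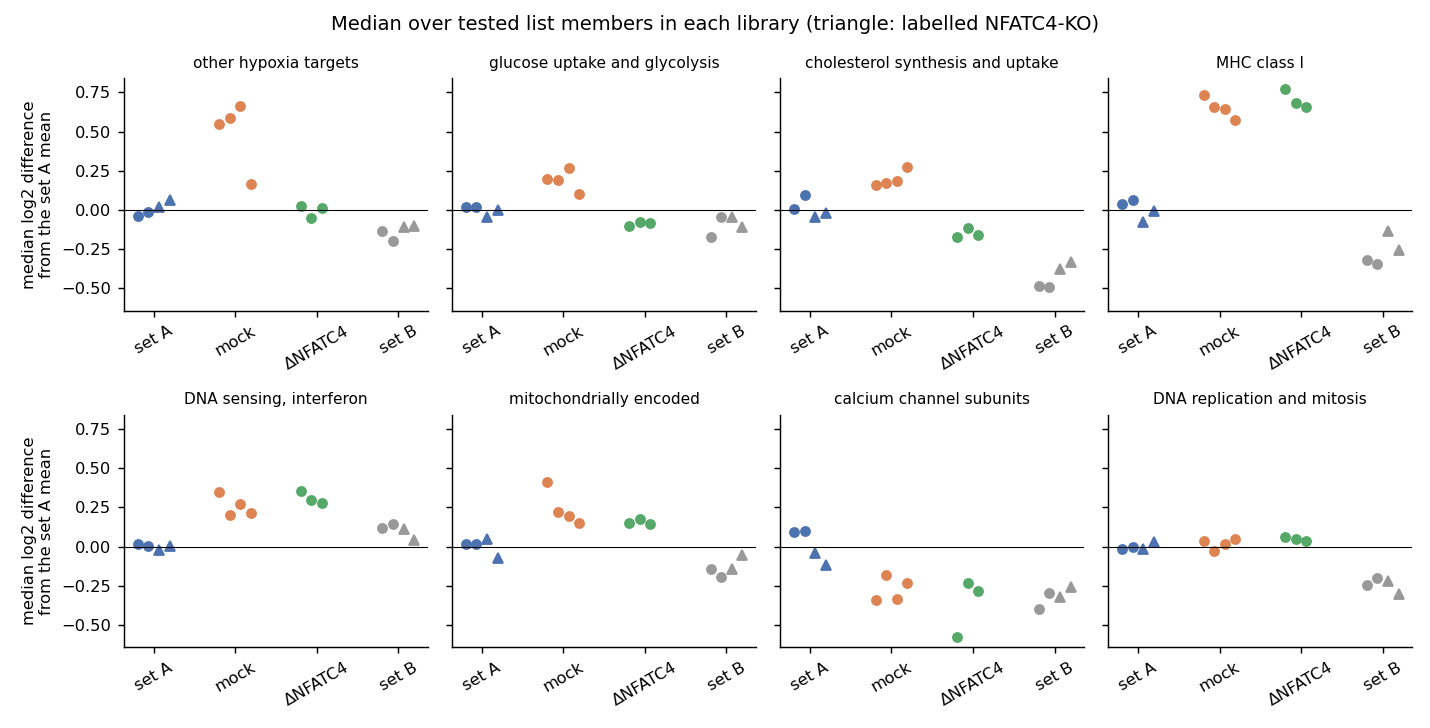
Median over the tested members of 8 gene lists (y axis, log2 difference from the set A mean) in each library. For other hypoxia targets mock 1 to 3 lie at 0.55 to 0.66 and ΔNFATC4 near 0, and for MHC class I mock and ΔNFATC4 both stand above set A.

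The largest single changes were in genes outside these pathways. By the rule for named genes, 57 genes were higher and 119 lower past 2-fold without overlap and at 1 CPM or more in either set. Among the highest, NELL2, a secreted protein of neural and endocrine cells, was at 76.9, 78.7, 77.7 and 81.7 CPM in mock and at 26.4, 26.3, 15.6 and 19.5 CPM in set A (1.84 ± 0.12). CD79A, known from the B-cell receptor, was at 28.0, 25.4, 27.4 and 25.9 CPM in mock and at 6.60, 6.28, 3.73 and 4.74 CPM in set A (2.31 ± 0.13). Mock libraries were tightly grouped in both genes, and ΔNFATC4, at 81.5 to 86.0 CPM for NELL2 and 26.4 to 29.5 CPM for CD79A, stood beside them. CD79A was at 0.427 to 0.642 CPM in set B, under set A.

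RUNX2, a transcription factor of bone (1.74 ± 0.21), AGT, the precursor of angiotensin (1.73 ± 0.20), S100A10, a partner of annexin A2 (1.60 ± 0.17), BIN1, which bends membranes (1.58 ± 0.19), and the lipid kinase PIP5K1B (1.85 ± 0.18) were likewise higher in mock and in ΔNFATC4 than in every library of set A, all at under 7 CPM. AGT overlaps COG2 on the other strand. VAT1L was at 11.8 to 15.4 CPM in mock, 3.18 to 4.54 CPM in set A and 30.8 to 33.6 CPM in ΔNFATC4. Set B was not low for VAT1L, with 340 to 616 raw counts beside 258 to 357 in mock. Nor was it for S100A10 (82 to 150 beside 113 to 149) and CST1 (18 to 41 beside 19 to 51). For RUNX2, AGT, BIN1, PIP5K1B, SERPINF1, LRRN3, DKK2 and SCGB1D2 the set B counts lay below mock. SERPINF1 (2.53 ± 0.28), LRRN3 (2.50 ± 0.48), DKK2 (1.65 ± 0.21), CST1 (1.61 ± 0.35) and SCGB1D2 (1.43 ± 0.29) complete the highest 15 with CA9 and PFKFB4.

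Among the lowest, FRAS1, a protein of the extracellular matrix, was at 37.1, 48.2, 50.4 and 49.2 CPM in mock and at 167, 148, 167 and 144 CPM in set A (-1.75 ± 0.09). KIT, the receptor of stem cell factor, was at 0.824, 0.776, 0.989 and 1.11 CPM in mock and at 5.06, 4.96, 4.80 and 4.99 CPM in set A (-2.40 ± 0.16). ΔNFATC4 lay in or next to the mock range for both, at 47.4 to 56.9 CPM for FRAS1 and 0.527 to 1.05 CPM for KIT. KIT was at 19.2 to 29.97 CPM in set B, so its level separated all 3 kinds of library. The growth factor IGF1 (-1.75 ± 0.24), the prolactin receptor PRLR (-2.09 ± 0.28), the kinase DAPK1 (-1.98 ± 0.23), the lipoprotein APOB (-1.61 ± 0.18) and the calcium-dependent phosphatase PPEF1 (-1.81 ± 0.27) were also lower in both transfected groups. PPEF1 was as low in set B, at 6 to 9 raw counts beside 5 to 16 in mock. IGF1, at 19 to 57 counts in set B, overlapped the 11 to 36 of mock. Counts of PRLR, DAPK1 and APOB in set B lay above mock.

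A few of the lowest genes were low in mock and not in ΔNFATC4. CUX2, a homeobox factor, was at 0.521, 0.259, 0.188 and 0.108 CPM in mock, at 2.27, 1.05, 1.65 and 1.47 CPM in set A, and at 2.19, 1.81 and 1.58 CPM in ΔNFATC4. SCG2, a granin of secretory granules, was at 0.388 to 0.706 CPM in mock, 1.94 to 2.79 CPM in set A and 2.29 to 3.00 CPM in ΔNFATC4. ID1, a target of BMP signalling, was at 4.83 to 6.60 CPM in mock, 16.3 to 19.8 CPM in set A and 12.5 to 17.4 CPM in ΔNFATC4. SCG2 was also low in set B, at 0.384 to 0.962 CPM. In all 3 genes ΔNFATC4 overlapped set A and did not overlap mock. PMFBP1 (-1.71 ± 0.23) had the same order and overlaps DHX38. CHD5 (-2.20 ± 0.25), HOXC11 (-1.94 ± 0.27), CFAP46 (-1.65 ± 0.12) and ZNF469 (-1.61 ± 0.22) had ΔNFATC4 between mock and set A. CHD5 was low in set B too, at 6 to 21 raw counts beside 6 to 13 in mock and 45 to 59 in set A. HOXC11, CFAP46 and ZNF469 stood above mock there.

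Steroid genes moved in both directions. Of 23, all tested, 9 were higher in mock, 3 lower and 11 not called. HSD3B2, which makes progesterone from pregnenolone, was at 73.0, 63.7, 58.2 and 58.2 CPM in mock and at 36.9, 39.5, 21.7 and 24.6 CPM in set A (1.05 ± 0.16). CYP17A1, the 17-hydroxylase, was at 292, 252, 279 and 250 CPM in mock and at 183, 197, 115 and 116 CPM in set A (0.82 ± 0.17). In both the libraries labelled NFATC4-KO were the lower ones of set A, and mock stood above the libraries labelled control too. The ACTH receptor MC2R was higher (0.67 ± 0.16) and the sulphate donor enzyme PAPSS2 lower (-0.78 ± 0.12). Against the libraries labelled control alone 5 steroid genes were higher and 4 lower, and against those labelled NFATC4-KO 12 were higher and 1 lower. Among all genes, 2362 were higher and 2455 lower of 14082 for the control label alone. For the NFATC4-KO label alone 1922 were higher and 1850 lower of 14039.

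CYP11B2, aldosterone synthase, was at 2.78, 2.41, 2.54 and 1.58 CPM in mock and at 2.92, 2.81, 2.33 and 3.27 CPM in set A. The ranges overlapped and the gene was not called (-0.29 ± 0.18). It was at 38.2, 41.1 and 35.7 CPM in ΔNFATC4, a log2 fold change of 4.06 ± 0.12 against mock (higher in 3 of 3 libraries). CYP11B1, which makes cortisol, was at 1.40 to 2.24 CPM in mock and 0.880 to 1.76 CPM in set A (0.59 ± 0.23, with overlap), and its call was lost under 13 of 20 alternatives. CYP11B1 and CYP11B2 are close copies whose reads may be split between them, and both were singled out after their values were seen. STAR, the cholesterol carrier, was higher by 0.32 ± 0.10, again with overlap, and was not called against the libraries labelled control alone (0.11).

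Of 28 genes of cholesterol synthesis and uptake, 26 were tested, 14 were higher and 3 lower. INSIG1, which holds back sterol synthesis, was at 97.8, 109, 97.7 and 110 CPM in mock, at 57.9, 67.8, 63.8 and 63.6 CPM in set A and at 58.0, 57.2 and 59.3 CPM in ΔNFATC4 (0.72 ± 0.06 for mock minus set A). IDI1, an enzyme of isoprenoid synthesis, was higher by 0.62 ± 0.07, and the sterol exporters ABCG1 (-0.77 ± 0.08) and ABCA1 (-0.61 ± 0.14) were lower, though ABCA1 was not called against the libraries labelled NFATC4-KO alone (-0.32). Against mock, ΔNFATC4 was lower for 18 of 27 of these genes and higher for 2. ABCG1 was also low in set B, at 173 to 239 raw counts beside 226 to 339 in mock and 438 to 500 in set A. ABCA1 was not, at 364 to 531 in set B beside 169 to 251 in mock. Of 15 tested fatty acid synthesis genes, 4 were higher in mock and 4 lower, near the 19.0% and 19.9% of all genes, with ACACB at -0.90 ± 0.11.

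Stress programmes were mixed. Of 22 ER chaperones, 12 were higher and none lower, by small amounts (SDF2L1 0.48 ± 0.09, PDIA3 0.30 ± 0.06), and 8 were higher against the libraries labelled NFATC4-KO alone. Among all genes 19.0% were higher against all of set A, and 1922 of 14039 against that label alone. Of 25 tested genes of the amino acid stress response, 12 were higher and 5 lower, led by CHAC1, a glutathione-degrading enzyme (1.10 ± 0.14), besides DDIT4. For NRF2 targets the counts were 8 higher and 2 lower of 21, with the glutathione transferase GSTA1 at 404, 352, 338 and 354 CPM in mock, 206, 235, 209 and 246 CPM in set A and 139, 137 and 118 CPM in ΔNFATC4. Every mock library of GSTA1 lay above set A and every ΔNFATC4 library below it. Set B was not low for ER chaperones, at a sum of 7128 to 7325 CPM beside 6991 to 7193 CPM in mock. Their median log2 difference from set A was 0.07 to 0.16 in set B and 0.14 to 0.22 in mock. NRF2 targets summed to 3954 to 4110 CPM in set B and 3660 to 3988 CPM in mock, with medians of 0.21 to 0.27 and 0.08 to 0.16. p53 targets had 5 higher and 1 lower of 23, and heat shock genes 4 and 2 of 16. NF-kB targets had 3 and 1 of 7 and the zinc response 2 and 1 of 7. These counts are to be read beside 19.0% higher and 19.9% lower among all genes.

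Immediate early genes went both ways, 12 higher and 7 lower of 30. The phosphatase DUSP2 (-1.49 ± 0.25), the nuclear receptor NR4A3 (-1.06 ± 0.11) and the matricellular CCN2 (-1.03 ± 0.28) were lower, and the transcription factor EGR2 was higher (1.34 ± 0.26). NR4A3 was at 31.1, 40.04, 36.1 and 41.8 CPM in mock and at 84.8, 94.3, 66.9 and 66.7 CPM in set A. Of YAP and SRF targets 6 were lower and 3 higher of 18, among them the actin crosslinker FLNA (-0.69 ± 0.10) and ACTA2 (-0.88 ± 0.12). Of 36 genes of DNA replication and mitosis, 7 were higher, near the 19.0% of all genes, and 5 lower, under the 19.9%. Their median log2 fold change was 0.01. The proliferation marker MKI67 was lower by 0.52 on the log2 scale, at 379 to 520 CPM in mock and 631 to 742 CPM in set A. MKI67 has 12845 bases of exons and falls in the longest of the 8 groups by length, whose median log2 fold change was -0.22. It kept its call with the length trend removed. What lowered it was not tested, and it does not stand for the list.

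Of the 13 mitochondrially encoded genes 9 were higher and 1 lower, and their share of all counts was 11.1 to 13.1% in mock and 9.71 to 10.5% in set A. With the length trend removed, 3 were higher and 1 lower. MT-ND6, the gene on the light strand, was lower (-0.95 ± 0.20). Of 15 NFAT and calcineurin genes, 1 was higher and 2 lower, namely PPP3CC (0.29 ± 0.11), RCAN2 (-0.73 ± 0.17) and NFAT5 (-0.58 ± 0.08). PPP3CC lost its call under 13 of 20 alternatives. RCAN2 was also low in set B, at 15 to 38 raw counts beside 36 to 82 in mock and 77 to 106 in set A. NFAT5 was not, at 1491 to 1840 in set B beside 879 to 1248 in mock. NFATC4 was at -0.08 ± 0.09 between mock and set A. It was at 330, 359 and 342 CPM in ΔNFATC4, a log2 fold change of 1.86 ± 0.06 against mock. The plasmid given to these cells encodes NFATC4 and its reads can count as the gene, so no p is given.

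Of the marker lists, adrenal cortex genes had 5 higher and 4 lower of 15, and against the libraries labelled NFATC4-KO alone 6 higher and 1 lower. AMHR2, among the lower (-0.55 ± 0.19), lost its call under 9 alternatives and was at -0.10 against that label. Of all 14039 genes tested against that label alone, 1922 were higher and 1850 lower. The summed level of the chromaffin markers was 101 to 114 CPM in mock and 77.9 to 86.2 CPM in set A, with SYP (0.53 ± 0.07) and CHGB (0.29 ± 0.08) higher. For endothelial markers the sums were 20.9 to 26.3 and 17.2 to 19.1 CPM, with EGFL7 higher (0.47 ± 0.09), and for epithelial markers they were 21.7 to 29.98 and 21.4 to 23.5 CPM, with KRT10 higher (0.25 ± 0.09) but not called under 9 alternatives. Immune (39.96 to 42.4 against 39.6 to 46.0 CPM) and fibroblast markers (62.5 to 65.7 against 62.4 to 72.3 CPM) had no called gene. The part of these levels in the differences above was not tested.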

How the data were processed

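RNA from NCI-H295R cells was sequenced by the authors as stranded mRNA libraries. Per the labels and methods, reads were aligned with STAR to GRCh38.p13 and counted per gene with featureCounts. The deposited values are raw counts of 21493 genes, 1 library to a file, not normalized. Strand and multi-mapping settings are not given in the sources used here. Of the genes, 21400 were matched to a symbol.

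CPM with TMM factors and all tests came from edgeR 4.0.16 in R 4.3.3 (quasi-likelihood fit, robust, filterByExpr, only the sets compared), with limma 3.58.1 and DESeq2 1.42.0 as alternatives; the adjustment was Benjamini-Hochberg across all genes in a fit. The fit was tested on simulated data. Spreads are mean ± SD or the SE of a log2 fold change. Promoters come from RefSeq and positions and exon lengths from GENCODE. Depth was 18777737 to 28164717 counts, and 3 counts equal 0.108 to 0.158 CPM, for counting error only. The sources do not say whether libraries came from separate cultures, so tests measure the spread between these libraries.

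The members, the 28 lists and the tests were chosen with earlier results of these data known. Named were ALDOC, PFKFB4, CACNA1C and NFATC4, the 15 highest and 15 lowest genes past 2-fold at 1 CPM or more without overlap (14 genes without a symbol passed over), the called members of the oxygen, glycolysis, hypoxia and calcium channel lists, and up to 4 called members of each other list. Alternatives were other size factors, filters and tools, all 15 libraries, 1 label of set A, a label term, a replicate block, each library left out and, added after seeing the data, removal of the length trend.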

Additional observations from a re-analysis of the deposited data

Results flagged for a closer look

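Among the 160 genes named by the rule or singled out, mock and set A were each searched for a library far from the other 3, in 320 groups. Such a library was found in 15 of the 320 groups, near the share of about 1 in 20 that chance alone flags. The libraries below are therefore listed as a description only. Mock 4 stood apart from the other mock libraries for MXI1 (16.5 CPM), KDM3A (52.4 CPM) and HLA-F (8.79 CPM), where it was low, and for KCNK2 (12.1 CPM) and SRXN1 (276 CPM), where it was high. Mock 1 was low for FRAS1 (37.1 CPM) and ARNT (62.2 CPM) and high for MT-ND1 (5319 CPM) and MT-CYB (13650 CPM). Mock 2 was low for EGFL7 (18.7 CPM) and GAPDH (3353 CPM). In set A, NFATC4-KO 1 was high for VHL (103 CPM) and ALDH1L2 (1.26 CPM) and low for ENO1 (436 CPM), and control 2 was low for DAPK1 (1.56 CPM).

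For 5 genes every mock library lay above set A and every ΔNFATC4 library lay below it. The log2 difference of ΔNFATC4 minus mock was -1.36 for ALDOC, -0.55 for LDHA, -0.54 for SLC2A1, -0.74 for BNIP3L and -1.46 for GSTA1. These genes were picked on their mock values, so no p is given for the difference.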

How the results depend on the processing

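Mock against set A was recomputed under 20 alternatives. The count of genes higher in mock past 2-fold, 82, became 147 with no filter on low counts, 40 with at least 50 counts in 3 libraries, 157 with only the libraries labelled control in set A and 125 with only those labelled NFATC4-KO. The count of lower genes, 166, became 250 with no filter and 85 with at least 50 counts in 3 libraries. The log2 fold change of PFKFB4 was 1.66 against the control label alone and 1.48 against the NFATC4-KO label alone, and was then not called. That of NFATC4, not called, turned to 0.10 against the NFATC4-KO label alone and was called lower (-0.24) against the control label alone. VEGFA, not called, turned to 0.12 with the length trend removed. With at least 50 counts in 3 libraries, ΔNFATC4 had 88 genes higher and 13 lower than mock, and 135 higher and 64 lower than set A, and with no filter 576 were higher than set A. Fewer or more genes enter the test under these filters, and the cause of the other changes was not tested.

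Leaving out each library in turn gave 82 to 114 genes higher and 143 to 196 lower in mock, 273 to 327 higher and 14 to 30 lower in ΔNFATC4 against mock, and 370 to 386 higher and 108 to 167 lower in ΔNFATC4 against set A. ALDOC ranged from 1.10 (without mock 3) to 1.32 (without mock 4), PFKFB4 from 1.33 to 1.79 and CACNA1C from -1.27 to -1.11. The deviations of same-numbered mock and set A libraries from the means of their sets correlated at -0.12 to 0.05. Set A mixes the control and NFATC4-KO labels and shares few replicate numbers with mock. The values therefore cannot show whether equal numbers mark pairs. With the replicate block, which could use only 6 libraries, 105 genes were higher and 188 lower in mock past 2-fold. Without the fold limit, the block left 1318 genes higher (2636 without it) and 1563 lower (2764). Called higher under it were 1 oxygen sensing gene, 4 steroid genes, 6 ER chaperones, 4 NRF2 targets, 7 immediate early genes, 3 replication genes and 22 hypoxia targets. Calls of EPAS1, BHLHE41, CACNA1G, PPP3CC, STAR, CYP11B1 and AMHR2 were among those lost. With the length trend removed, an alternative added after the data were seen, 79 were higher and 160 lower, of which 74 and 134 were also called without it. Over 157 single named genes and 3118 recomputed values, 2922 kept direction and call, 178 lost the call, 16 gained it and 2 turned.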
